A study of Mus musculus with 2 samples.

Results

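The genes described here are 9 cofactors of MLL fusion proteins: Kmt2a, Men1, Psip1, Dot1l, Mllt1, Mllt3, Mllt10, Aff1 and Aff4. They were taken by symbol from the 27998 genes of the matrices, and each symbol had 1 row. The material was mouse MLL-AF9 leukaemia cells that express the nuclease Cas9, labelled as primary mouse leukaemia and grown with interleukin-3 at 10 ng/ml. Jmjd1c is a JmjC-family protein described as a histone demethylase. Cells with a guide RNA against its Jumonji domain gave 1 single-cell library, called Jumonji here, and cells with a control guide named Renilla gave the other. With 1 library per condition no difference between them has a replicate check and none was tested. MLL-AF9, Cas9 and interleukin-3 were common to both. Jmjd1c itself was at 140 and 112 counts per 1000000 UMIs (CPM) in the Renilla and Jumonji cells. This reads the 3′ end of its RNA and does not check an edit in the coding sequence. How the fusion was introduced, and how many clones or mice the cells came from, is not given in the sources used here.

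MLL (Kmt2a) is a histone methyltransferase, and leukaemic fusions keep its amino-terminal part, which is held on chromatin by menin (Men1) and LEDGF (Psip1). The part contributed by the fusion partner, here AF9 (Mllt3), recruits elongation machinery. AF9 and its paralogue ENL (Mllt1) read acylated histones through a YEATS domain and bind either the super elongation complex, built on the scaffolds AF4 (Aff1) and AFF4 (Aff4), or the histone H3 methyltransferase DOT1L with its partner AF10 (Mllt10). This axis keeps Hoxa9 and Meis1 active in MLL-rearranged leukaemia and is the target of menin and DOT1L inhibitors.

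After barcodes with more than 10% mitochondrial molecules were set aside, 608 Renilla and 575 Jumonji cells remained, with medians of 23528 and 22123 unique molecular identifiers (UMIs, tags that mark single RNA molecules) per cell. UMIs are counted per gene and scaled to the library total. No cell barcode was shared by the libraries. Mature myeloid markers differed between them. The Jumonji library exceeded the Renilla library 1.5-fold or more for 5 of 6 measured neutrophil markers and for 5 of 6 monocyte and macrophage markers, and stood below it by that much for 5 of 7 progenitor and promyelocyte markers. In each list 1 marker went the other way by more than 1.5-fold, with log2 ratios of -1.76 for Camp (neutrophil), -1.15 for Ccr2 (monocyte) and 0.81 for Cd34 (progenitor). Their summed levels in the Renilla and Jumonji libraries were 147 and 917 CPM for neutrophils, 137 and 614 CPM for monocytes and macrophages, and 5567 and 2405 CPM for progenitors and promyelocytes. Ltf, Cd3e, Cd3g and Ms4a1 had 0 UMIs in both libraries. The part of this difference in cell state in the cofactor values was not tested, but values within cell states are given below.

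The cofactor genes were expressed at modest and very unequal levels, and their order was the same in both libraries. In the Renilla library Mllt10 stood first at 127 CPM (95% counting interval 121 to 133), followed by Kmt2a at 99.6 CPM (94.5 to 105), Psip1 at 38.5 CPM (35.4 to 41.8) and Dot1l at 25.7 CPM (23.2 to 28.5). Lower levels were seen for Aff1 at 21.5 CPM (19.2 to 24.0), Men1 at 17.6 CPM (15.5 to 19.9), Aff4 at 11.0 CPM (9.32 to 12.8), Mllt1 at 8.25 CPM (6.84 to 9.88) and Mllt3 at 2.77 CPM (1.98 to 3.78). The intervals of neighbours overlapped for Dot1l and Aff1, for Aff1 and Men1, and for Aff4 and Mllt1. In the Jumonji library they overlapped for Mllt10 and Kmt2a, for Dot1l and Aff1, for Aff1 and Men1, and for Mllt1 and Mllt3. Because 1 UMI is read at the 3′ end of 1 molecule, these levels do not scale with transcript length, but how well each 3′ end is captured differs between genes and was not measured. The intervals cover counting error only.

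**Figure D1:**
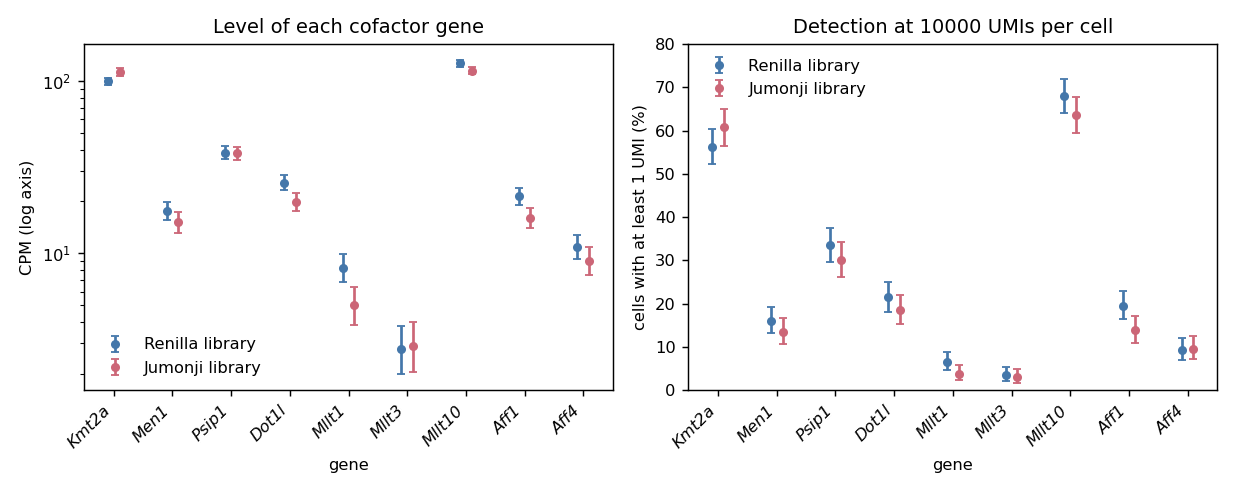
Left, level of each cofactor gene in CPM (log axis) in the Renilla and Jumonji libraries, with exact 95% Poisson intervals. Right, share of cells with at least 1 UMI after thinning cells to 10000 UMIs and leaving out shallower ones, with exact 95% binomial intervals. Mllt10 and Kmt2a lie well above the other 7 genes in both libraries, and Mllt3 lies lowest.

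Between the libraries the cofactors differed little. All 9 had at least 50 UMIs over both libraries and 8 had at least 100, the minimum for a gene to be counted as apart; Mllt3 did not reach it. Of these 8 genes, 1 was at least 1.5-fold lower in the Jumonji library (Mllt1), against 7.89% of 8959 genes with at least 100 UMIs, and 0 were higher by that much, against 9.91% of all genes. None was 2-fold apart in either direction, against 1.48% of genes lower and 4.65% higher. The counting interval of the log2 ratio lay wholly below 0 for 4 of the 8 genes (31.8% of all genes) and wholly above 0 for 1 (25.5%). With 8 genes these counts are too small to set the cofactors apart from other genes. The median log2 ratio of the 9 genes was -0.22, beside -0.06 for all genes tested, whose middle range (first to last quartile) ran from -0.30 to 0.22.

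**Figure D2:**
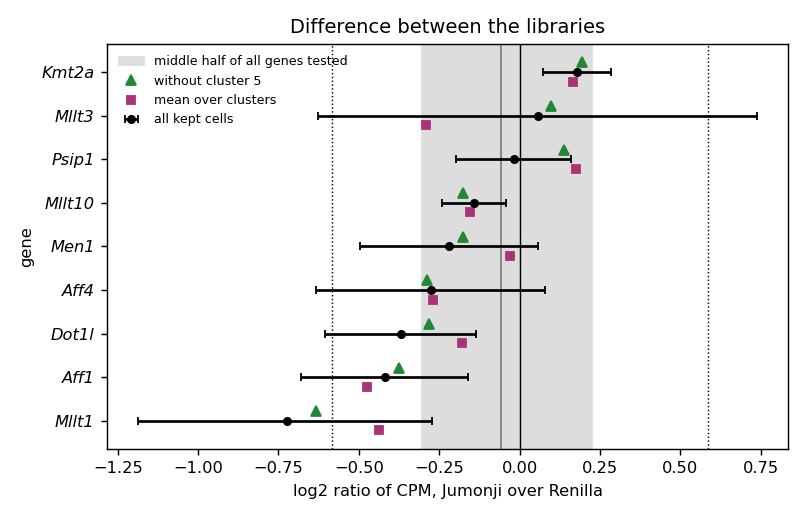
Log2 ratio of CPM, Jumonji over Renilla, for each cofactor gene with its 95% counting interval (black). Triangles leave out cluster 5, squares are means over the 4 clusters with at least 20 cells of each library, the grey band spans the quartiles of all 8959 genes tested with their median as a grey line, and dotted lines mark 1.5-fold. Mllt1 is the gene farthest from 0 and crosses back over the dotted line as a mean over clusters.

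Among the genes of MLL, menin and LEDGF, Kmt2a was slightly higher in the Jumonji library and the others did not differ beyond counting error. Kmt2a (chromosome 9, 44803355 to 44881296, minus strand) had 1436 UMIs in the Renilla and 1443 in the Jumonji library, or 99.6 and 113 CPM, a log2 ratio of 0.18 (0.07 to 0.28). Men1 (chromosome 19, 6334979 to 6340891, plus strand) had 254 and 194 UMIs, or 17.6 and 15.1 CPM, a log2 ratio of -0.22 (-0.50 to 0.06). Psip1 (chromosome 4, 83455680 to 83486459, minus strand), which encodes the long and short LEDGF isoforms, had 555 and 487 UMIs, or 38.5 and 38.0 CPM, a log2 ratio of -0.02 (-0.20 to 0.16). Kmt2a counts come from the 3′ end of the gene, which encodes the methyltransferase part that fusions lose. A fusion transcript without that 3′ end would not be counted here. The 3′ end of Psip1 overlaps Snapc3 on the other strand, and whether counting used strand is not given in the sources used here.

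In the DOT1L branch 2 genes were lower beyond counting error when scaled to library totals. Dot1l (chromosome 10, 80755206 to 80795461, plus strand) had 371 UMIs in the Renilla and 255 in the Jumonji library, or 25.7 and 19.9 CPM. This was 1.29-fold lower, and the log2 ratio was -0.37 (-0.61 to -0.14). Mllt10 (chromosome 2, 18055237 to 18212388, plus strand), the AF10 partner of DOT1L, had 1833 and 1475 UMIs, or 127 and 115 CPM, a log2 ratio of -0.14 (-0.24 to -0.04). With ratios centred on the median of all genes, which shifts them by 0.06, Mllt10 was at -0.09. Its interval above holds that median, at -0.06, so Mllt10 was not lower than the median gene beyond counting error. The 3′ end of Mllt10 overlaps Dnajc1 on the other strand, with the same limit as for Psip1.

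Of the YEATS paralogues, Mllt1 was lower and Mllt3 was too sparse to place. Mllt1 (ENL, chromosome 17, 56892611 to 56935415, minus strand) had 119 UMIs in the Renilla and 64 in the Jumonji library, or 8.25 and 4.996 CPM. It was 1.65-fold lower, and its log2 ratio was -0.72 (-1.19 to -0.27). Among all genes tested, 4.43% had a lower ratio. Mllt3 (AF9, chromosome 4, 87769925 to 88033364, minus strand) had 40 and 37 UMIs, or 2.77 and 2.89 CPM, a log2 ratio of 0.06 (-0.63 to 0.74). This interval overlaps that of Mllt1, so the data do not show whether the paralogues differ. MLL-AF9 keeps the carboxy-terminal part of AF9, so a fusion transcript that ended in the Mllt3 3′ end would add to this count. Mllt3 nevertheless had the fewest UMIs of the 9 genes. Which 3′ end the fusion transcript carries is not given in the sources used here.

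Of the super elongation complex scaffolds, Aff1 was lower and Aff4 did not differ beyond counting error. Aff1 (AF4, chromosome 5, 103692374 to 103855322, plus strand) had 310 UMIs in the Renilla and 206 in the Jumonji library, or 21.5 and 16.1 CPM. It was 1.34-fold lower, and its log2 ratio was -0.42 (-0.68 to -0.16). Aff4 (chromosome 11, 53350833 to 53421830, plus strand) had 158 and 116 UMIs, or 11.0 and 9.06 CPM, a log2 ratio of -0.28 (-0.63 to 0.08). In cells thinned to the same depth Aff4 was at 0.10, so it has no stable direction.

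The promoters of 3 of these genes are shown as examples. Mllt1 and Dot1l were each lower in the Jumonji library, as were Aff1 and Mllt10, and Kmt2a was slightly higher. Each window is 300 bases around the gene's start in RefSeq, build GRCm38.p6, most of it upstream, written 5′ to 3′ on the gene's strand. The windows are chr17:56935339-56935638 for Mllt1, chr10:80754953-80755252 for Dot1l and chr9:44881240-44881539 for Kmt2a. Capitals mark GGGCGG, the GC box, on either strand, where matches may overlap.
Mllt1: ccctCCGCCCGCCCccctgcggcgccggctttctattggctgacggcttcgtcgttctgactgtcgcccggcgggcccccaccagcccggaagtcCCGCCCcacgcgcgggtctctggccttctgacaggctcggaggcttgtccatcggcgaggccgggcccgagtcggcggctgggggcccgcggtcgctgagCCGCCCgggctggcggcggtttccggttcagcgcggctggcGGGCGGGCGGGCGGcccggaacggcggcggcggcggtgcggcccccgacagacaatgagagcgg
Dot1l: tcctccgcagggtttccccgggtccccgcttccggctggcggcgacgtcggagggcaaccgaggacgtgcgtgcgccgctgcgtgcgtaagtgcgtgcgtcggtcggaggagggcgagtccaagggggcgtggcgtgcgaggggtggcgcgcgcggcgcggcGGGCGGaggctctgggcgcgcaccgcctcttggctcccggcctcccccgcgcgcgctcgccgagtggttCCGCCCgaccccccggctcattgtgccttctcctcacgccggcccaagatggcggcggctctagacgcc
Kmt2a: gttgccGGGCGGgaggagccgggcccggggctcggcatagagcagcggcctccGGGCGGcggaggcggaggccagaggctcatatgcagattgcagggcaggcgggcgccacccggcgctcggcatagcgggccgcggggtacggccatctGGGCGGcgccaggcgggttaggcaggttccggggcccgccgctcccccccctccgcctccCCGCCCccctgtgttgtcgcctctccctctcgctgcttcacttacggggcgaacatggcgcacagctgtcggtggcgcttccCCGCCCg
All 3 windows were rich in CG dinucleotides, with 46 in Mllt1, 49 in Dot1l and 36 in Kmt2a, against a median of 7 over 32851 promoter windows. The GC box was matched 7 times in Mllt1, 2 times in Dot1l and 5 times in Kmt2a, and 35.7% of all windows held it. CCGGAA, the core of ETS factor sites, was matched 3 times in Mllt1 and 1 time each in Dot1l and Kmt2a, with 14.9% of all windows holding it. GGCGGGA, an E2F-like motif that can overlap the GC box, was matched 1 time each in Mllt1 and Kmt2a and 0 times in Dot1l, and 11.3% of all windows held it. CCAAT was matched 1 time in Mllt1 and in neither of the others, and 37.4% of all windows held it. All motifs were searched on both strands. Of the 9 genes, 8 had a window in the table, and Psip1 had none. The GC content was 77.7% in Mllt1, 76.3% in Dot1l and 75.7% in Kmt2a. This likeness does not extend to every window of the other lower genes: the 3 Mllt10 windows were at 42.3%, 42.7% and 78.3%, and the 2 Aff1 windows at 77.3% and 63.0%. Of the genes that did not differ beyond counting error, Aff4 had a window at 79.0%. Mllt3 had windows at 44.7% and 70.3%, and Men1 at 53.3%, 58.0% and 57.7%. A match describes letters and is not a site.

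Detection per cell followed level. A Mllt10 UMI was seen in 88.5% (85.7% to 90.9%) of Renilla and 85.7% (82.6% to 88.5%) of Jumonji cells, and a Kmt2a UMI in 85.9% (82.8% to 88.5%) and 84.9% (81.7% to 87.7%). Mllt3 was at the other end, in 6.58% (4.74% to 8.85%) of Renilla and 6.09% (4.28% to 8.36%) of Jumonji cells. The remaining 6 genes lay between 10.6% and 56.3%. A median of 4 of the 9 genes was seen in a Renilla cell and 3 in a Jumonji cell, with at most 8 in any cell, and 3 Renilla and 7 Jumonji cells had none. No cell type that lacks these widely expressed genes was available as a background for free RNA. Of 10 genes of unrelated tissues such as Alb and Ins2, 9 had 0 UMIs in both libraries and Tnnt2 had 1 UMI.

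These shares depend on depth, which was slightly lower in the Jumonji library. With cells thinned to 10000 UMIs, which left 579 Renilla and 520 Jumonji cells, the binomial intervals of the libraries overlapped for all 9 genes. Overlap of separate intervals does not show that the shares are alike, and the difference in shares was not tested. Mllt1 was seen in 6.56% (4.69% to 8.90%) of Renilla and 3.85% (2.36% to 5.88%) of Jumonji cells, and Aff1 in 19.5% (16.4% to 23.0%) and 13.8% (11.0% to 17.1%). Kmt2a was seen in 56.3% (52.2% to 60.4%) and 60.8% (56.4% to 65.0%). For 7 of the genes the variance over mean of the counts per thinned cell was near that of Poisson counts, between 0.90 and 1.16. For Kmt2a it was 1.26 in the Renilla and 1.41 in the Jumonji library, and for Mllt10 it was 1.18 and 1.38. At low mean counts this measure stays near the Poisson value even where levels differ between cells. It therefore does not show whether the 2 abundant genes vary more than the other 7.

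The levels of Psip1 and Mllt10 differed between called cycle phases beyond counting error, in the same direction in both libraries. Dot1l and Men1 did so between G2/M and G1 alone, and no phase difference of Kmt2a, Mllt1, Mllt3, Aff1 or Aff4 passed counting error in both. The share of all genes that pass counting error between phases was not computed. For G2/M over G1 the median gene was at 0.18 in the Renilla and 0.14 in the Jumonji library. Of genes with at least 100 UMIs in the library, 21.8% and 20.4% were at least 1.5-fold higher in G2/M. Of the cofactors so measured 3 of 8 and 3 of 7 were. Each cell thinned to 10000 UMIs was given a phase from lists of S and G2/M genes, which hold none of the 9 genes. G1 was called in 63 of 579 Renilla cells, or 10.9% (8.46% to 13.7%), and in 142 of 520 Jumonji cells, or 27.3% (23.5% to 31.4%). The summed monocyte and macrophage markers were also highest in G1 cells, at 256 CPM in the Renilla and 1107 CPM in the Jumonji library, against 131 and 401 CPM in S cells. Whether phase or maturation goes with the cofactor levels was not tested.

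Psip1 was highest in S phase cells. In the Renilla library it was at 21.3 CPM in G1, 50.3 CPM in S and 33.7 CPM in G2/M, and in the Jumonji library at 15.8, 54.9 and 38.0 CPM. The log2 ratio of S over G1 was 1.24 (0.68 to 1.85) in the Renilla and 1.80 (1.31 to 2.32) in the Jumonji library, above 95.02% and 97.3% of genes with at least 100 UMIs in the library. The log2 ratio of G2/M over S was -0.58 (-0.83 to -0.33) and -0.53 (-0.81 to -0.25). Of the cofactors with at least 100 UMIs in the library, 3 of 8 in the Renilla library (Men1, Psip1 and Dot1l) were at least 2-fold higher in S than in G1 (7.59% of genes), and 1 of 7 in the Jumonji library (Psip1, 8.34% of genes). Men1 was at 6.60 and 20.6 CPM in Renilla G1 and S cells and at 10.8 and 15.5 CPM in Jumonji cells. The G1 value for Renilla rests on 9 UMIs.

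Mllt10 had the opposite shape, lowest in S phase. It was at 127, 101 and 144 CPM in G1, S and G2/M of the Renilla library and at 116, 89.3 and 127 CPM in those of the Jumonji library. The log2 ratio of G2/M over S was 0.51 (0.35 to 0.66) and 0.50 (0.32 to 0.69). This was higher than in 93.5% and 93.0% of genes, though below 1.5-fold, which 0 of 8 and 0 of 7 cofactors reached, against 4.33% and 5.03% of genes. Dot1l was at 11.0, 23.6 and 29.4 CPM in G1, S and G2/M of the Renilla library and at 13.8, 18.6 and 23.3 CPM in the Jumonji library, lowest in G1 in both. Kmt2a varied little, between 94.6 and 112 CPM in the Renilla and between 108 and 119 CPM in the Jumonji library. Aff1 was lower in the Jumonji library in G2/M cells, at 15.3 against 24.3 CPM, a log2 ratio of -0.67 (-1.05 to -0.30), while in S cells it was at 17.1 against 16.4 CPM. The difference between these phases was not tested.

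**Figure D3:**
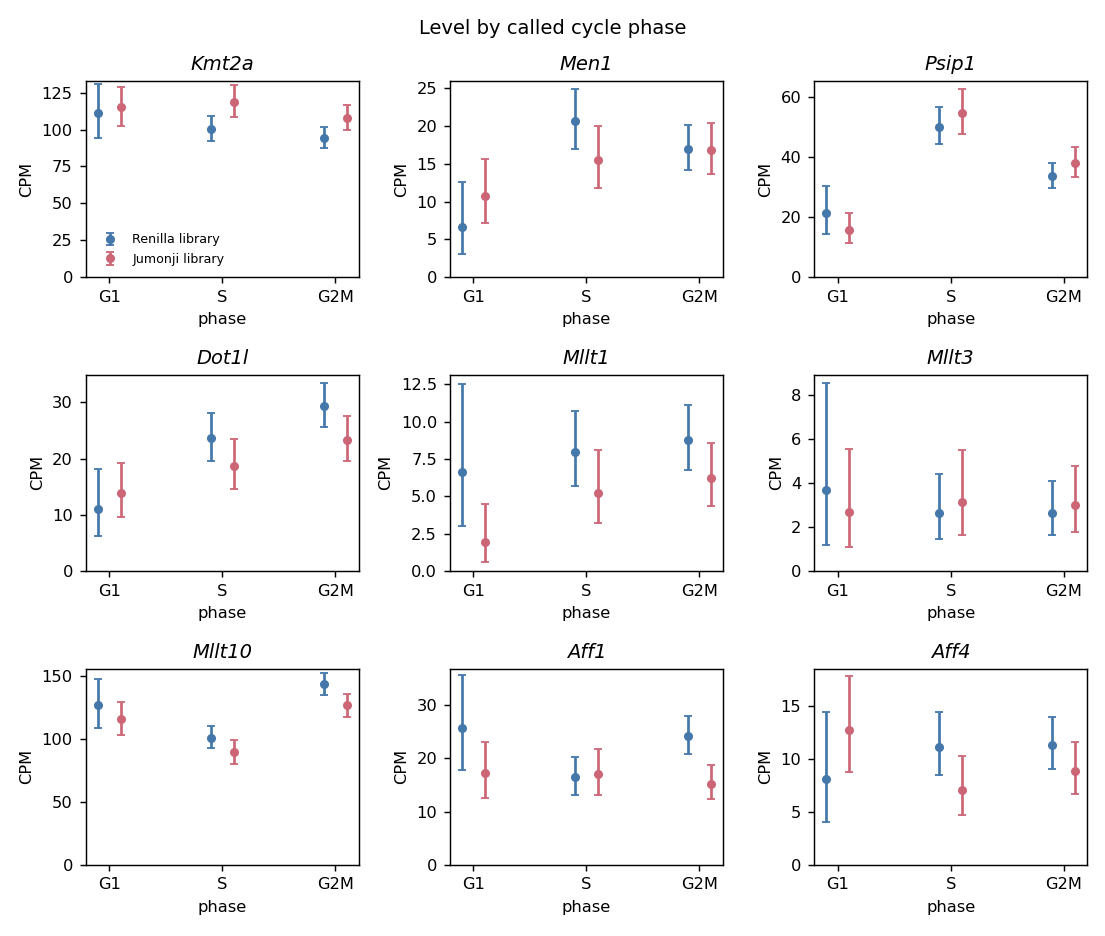
Level in CPM of each cofactor gene (1 panel per gene) in cells called G1, S and G2/M, for the Renilla and Jumonji libraries, with exact 95% Poisson intervals; every axis starts at 0. Psip1 peaks in S and Mllt10 dips there in both libraries, while the intervals of Mllt3 and Aff4 overlap throughout.

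Cells were also grouped into 6 clusters, built without the cofactors, the wider pathway lists, cycle genes and genes at least 1.5-fold apart between the libraries. No cluster is named as a cell type. Cluster 5 was led by Wfdc17, Ctss and Ccl9, held 18 Renilla and 130 Jumonji cells and had a median of 13373 UMIs per cell. In its Jumonji cells the summed monocyte and macrophage markers were at 1860 CPM and the neutrophil markers at 1100 CPM. Nearly all its thinned cells were in G1, 90 of 93 in the Jumonji library and 15 of 15 in the Renilla library. Cluster 4 was led by Ube2c, Cenpf and Ccnb1, genes of mitosis, with 85 Renilla and 83 Jumonji cells. Of its thinned cells 100% in the Renilla and 98.7% in the Jumonji library were called G2/M. Values by phase and values for clusters 4 and 5 therefore share many cells and are not separate observations. Clusters 2 and 6 were mostly Renilla cells and clusters 3 and 5 mostly Jumonji cells, so each of these may be a library as much as a kind of cell.

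In cluster 5 Psip1 and Dot1l were low while the abundant pair, Mllt10 and Kmt2a, was not. Within the Jumonji library Psip1 was at 7.34 CPM (3.91 to 12.5) in cluster 5 and 42.9 CPM (39.2 to 47.0) in the other cells, a log2 ratio of -2.55 (-3.47 to -1.76). Dot1l was at 9.59 CPM (5.59 to 15.4) against 21.6 CPM (18.9 to 24.5), a log2 ratio of -1.17 (-1.97 to -0.46). These 2 of 7 measured cofactors were at least 2-fold lower there, against 16.5% of 7419 genes, and the median gene was at -0.18. Mllt10 was slightly higher instead, at 138 against 112 CPM, and Kmt2a was alike at 111 and 113 CPM. The 18 Renilla cells of cluster 5 held few counts, with 4 Psip1 UMIs, or 13.0 CPM (3.55 to 33.4), against 39.0 CPM (35.9 to 42.4) elsewhere, and 1 Dot1l UMI. There 3 of 8 cofactors (Men1, Psip1 and Dot1l) were at least 2-fold lower, against 26.4% of genes. Men1 and Dot1l rest on 1 UMI each. Mllt1 had 0 UMIs there, against 8.43 CPM elsewhere. Its 0 was set to 3 for the ratio, as for any gene, so it did not count as lower. In the mitotic cluster 4, Mllt10 reached 164 CPM in the Renilla and 161 CPM in the Jumonji library, against 119 and 105 CPM in the other cells of each. Among cofactors with at least 100 UMIs in the library, 1 of 7 in the Jumonji library (Mllt10) was at least 1.5-fold higher there (6.03% of genes), and 0 of 8 in the Renilla library (4.83% of genes). By the same rule 1 of 7 was that much lower in the Jumonji library (Psip1, 5.15% of genes), and 0 of 8 in the Renilla library (4.2% of genes). Mllt1, under that minimum in the Jumonji library, was at 8.78 CPM in cluster 4 (20 UMIs) against 4.18 CPM in its other cells (44 UMIs), a log2 ratio of 1.07 (0.23 to 1.86). In the Renilla library this ratio was 0.34 (-0.35 to 0.98).

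Ratios within clusters differed from those over all cells for some genes. Psip1, level with the control over all cells, was higher in the Jumonji library within cluster 1, at 40.8 against 29.9 CPM, a log2 ratio of 0.45 (0.04 to 0.86), and within cluster 3, at 54.2 against 38.7 CPM, a log2 ratio of 0.49 (0.06 to 0.93). Its ratio was 0.39 in cluster 2 and below 0 in the other 3 clusters, at -0.20 in cluster 4, -0.83 in cluster 5 and -0.03 in cluster 6, and these 4 intervals held 0. Within called phases the Psip1 ratio was -0.43 in G1, 0.13 in S and 0.18 in G2/M, and each interval held 0. Over all cofactors and clusters some intervals lie off 0 by counting error alone. The share of all genes that do so within a cluster was not computed. Dot1l went from -0.37 over all cells to -0.28 without cluster 5 and to -0.18 as a mean over 4 clusters. Mllt1 was at -0.63 without cluster 5 and at -0.44 as a mean over clusters, where it no longer reached 1.5-fold. Mllt10 had a log2 ratio below 0 in each of the 6 clusters, and Kmt2a was above 0 in all but cluster 5, where it was at -0.31 (-0.79 to 0.21). Most of these ratios were within counting error. The Mllt10 interval lay wholly below 0 in 1 cluster, cluster 2 with 19 Jumonji cells, at -0.94 (-1.52 to -0.41). The Kmt2a interval lay wholly above 0 in 0 clusters. Within phases it did so in S, at 0.25 (0.06 to 0.43), and G2/M, at 0.19 (0.04 to 0.35), but not in G1, at 0.04. In G2/M alone the intervals of Mllt10, at -0.18 (-0.32 to -0.04), Dot1l, at -0.34 (-0.65 to -0.02), and Aff1, given above, lay wholly below 0. That of Mllt1 did so in G1 alone, at -1.78 (-3.71 to -0.05), on 5 Jumonji UMIs. The share of all genes that do so within a phase was not computed.

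**Figure D4:**
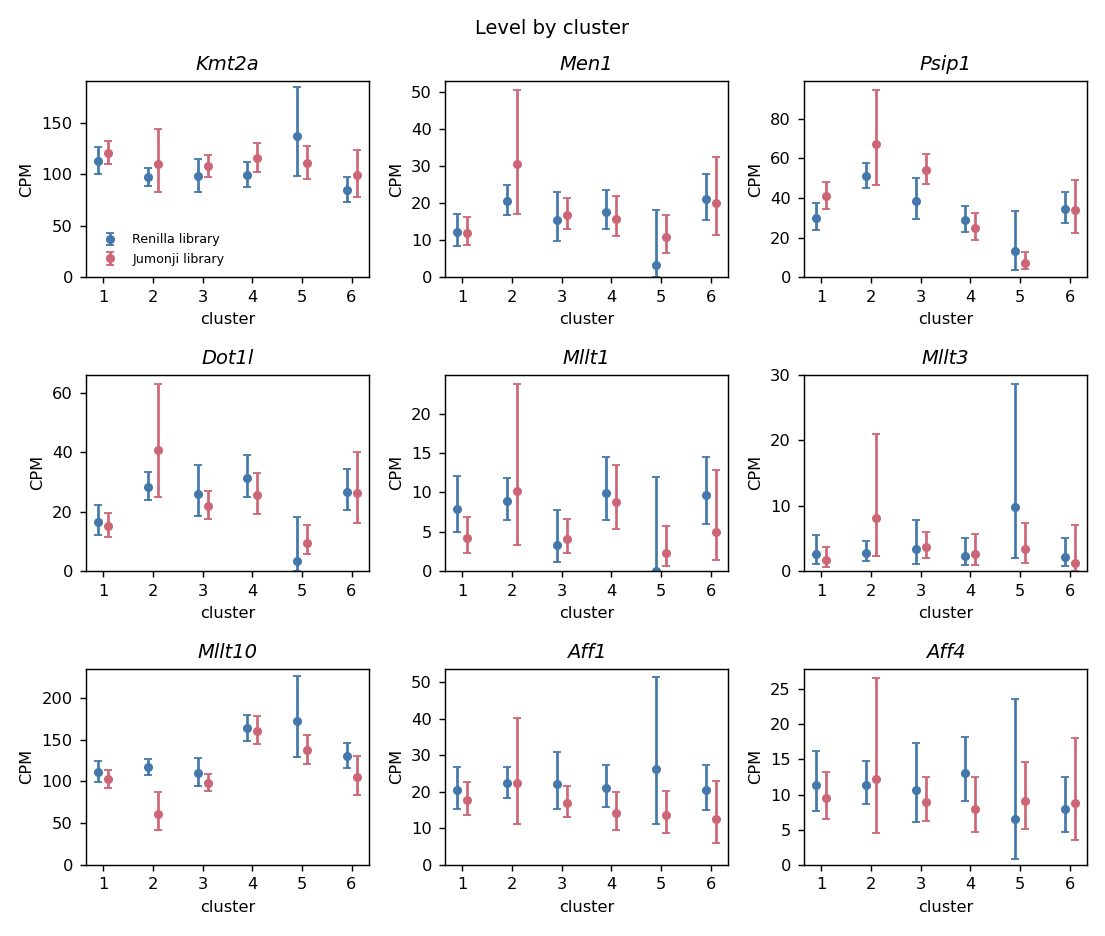
Level in CPM of each cofactor gene (1 panel per gene) in clusters 1 to 6 of the Renilla and Jumonji libraries, with exact 95% Poisson intervals; every axis starts at 0. Psip1 and Dot1l are lowest in cluster 5 and Mllt10 stands high in cluster 4 in both libraries, while wide intervals mark clusters with few cells of a library.

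Across single cells the cofactors hardly varied together. Over the 36 pairs the median Pearson correlation of log-transformed scaled counts was 0.02 in 608 Renilla cells and 0.02 in 575 Jumonji cells, with extremes of -0.07 and 0.11 in the Renilla and -0.12 and 0.12 in the Jumonji library. In cells thinned to 10000 UMIs the medians were 0.01 and -0.003, beside a median of -0.001 and -0.002 for the cofactors with 8951 other genes. The pair highest in the Jumonji library, Dot1l with Mllt1 at 0.17, rests on 8 cells with both, and was at 0.01 in the Renilla library. Men1 with Psip1, the highest Renilla pair at 0.10, was at 0.02 in the Jumonji library. On log-transformed counts Dot1l with Aff4 was the highest pair in both libraries, at 0.11 and 0.12, but on thinned counts it was at 0.09 and -0.03. With 7 of the 9 genes at fewer than 1 UMI per cell, correlations of this size are no finding, and cells of a library share culture, preparation and depth.

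**Figure D5:**
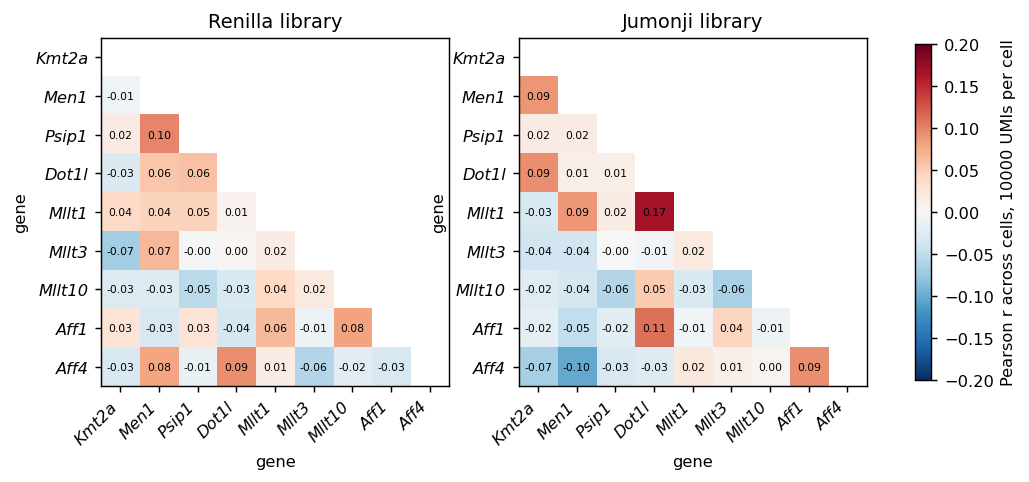
Pearson correlation across cells of each pair of cofactor genes, after thinning to 10000 UMIs, with colour from -0.20 to 0.20. Shown are the 579 Renilla cells (left) and 520 Jumonji cells (right) with at least 10000 UMIs. All values lie between -0.10 and 0.17, and the pairs that are highest in one library are not the highest in the other.

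Averaged over groups of cells, profiles were clearer. Over 10 groups (clusters split by library, at least 20 cells each), log2(CPM + 10) of Psip1 was most like that of Fen1, a flap endonuclease of DNA replication (r = 0.99), and Mms22l, a factor in replication fork repair (r = 0.98). The genes most like Dot1l were Suv39h1, a histone methyltransferase, and Rnf4, a SUMO-targeted ubiquitin ligase (both r = 0.98). Those most like Aff1 were Fam168b (r = 0.96) and Nktr (0.94), those most like Kmt2a were Fam63b (0.94) and Mkl1 (0.91), and those most like Mllt10 were Erbb2ip (0.93) and Polr2a (0.90). These are the highest of 5170 genes compared over groups that share 2 libraries, and are given as a description only. The other 4 cofactors had too few UMIs for this comparison.

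The wider machinery differed little as well. Among 18 measured MLL family and COMPASS subunits, 2 were lower in the Jumonji library by 1.5-fold or more and 0 were higher by that much, and the median log2 ratio was -0.12. These were Kmt2b at -0.78 (-1.14 to -0.42) and Kmt2d at -0.76 (-1.08 to -0.44), paralogues of Kmt2a, while Setd1b, the catalytic subunit of another COMPASS complex, was at 0.46 (0.25 to 0.67) and Bod1l at 0.21 (0.04 to 0.38). The 13 menin and LEDGF partners had none beyond 1.5-fold and a median of -0.08, with extremes of 0.52 (-0.05 to 1.09) for Jund, a transcription factor bound by menin, and -0.34 (-0.70 to 0.02) for Brd1. Ing4 was at 0.25 (0.05 to 0.45) and Pogz at -0.34 (-0.72 to 0.04).

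Elongation factors gave a median of -0.003 over 19 measured genes. Ell2, an elongation factor of the super elongation complex, was the only one at least 1.5-fold apart, higher at 0.61 (0.22 to 1.00), with its paralogue Ell at 0.23 (-0.14 to 0.60). Eaf1, which binds ELL proteins, was at -0.46 (-0.73 to -0.19) and Nelfa, a subunit of the pausing factor NELF, at -0.35 (-0.53 to -0.16). The 6 PAF1 complex genes had a median of 0.02 and none beyond 1.5-fold, between Wdr61 at -0.37 (-0.51 to -0.23) and Leo1 at 0.44 (0.18 to 0.70), with Cdc73 at -0.34 (-0.59 to -0.09) and Rtf1 at 0.16 (0.04 to 0.29). None of 9 DOT1L partners and H2B ubiquitination genes passed 1.5-fold, and their median was -0.06. Ube2b, an E2 enzyme of H2B ubiquitination, was at 0.52 (0.43 to 0.61), Mllt6, an AF10 paralogue, at 0.21 (-0.49 to 0.91), Sirt1 at -0.24 (-0.69 to 0.20) and Usp22, which removes this mark, at -0.45 (-0.79 to -0.12). The 10 genes around CBX8, BCOR and other YEATS proteins had a median of 0.02, with Cbx8, a Polycomb protein that binds AF9, at 0.43 (0.08 to 0.78), Rnf2 at 0.17 (-0.09 to 0.43), Bcorl1 at -0.36 (-1.01 to 0.28) and Kdm2b at -0.48 (-0.64 to -0.33).

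Among 12 measured genes known as other MLL fusion partners, 1 was at least 1.5-fold higher and 0 were lower, with a median of 0.09. This was Gas7, at 810 UMIs against 50, or 63.2 against 3.47 CPM, a log2 ratio of 4.19 (3.78 to 4.63). Foxo3 was at 0.50 (0.18 to 0.82), Eps15 at -0.20 (-0.46 to 0.05) and Crebbp at -0.22 (-0.42 to -0.01). The 16 measured MLL fusion target genes had a median of -0.07 with 1 at least 1.5-fold lower, the cell cycle kinase Cdk6, and Hoxa5 at -0.45 (-0.72 to -0.19). Runx1 and Runx2, at 0.40 (0.24 to 0.56) and 0.21 (0.06 to 0.35), were the highest of these. All list values are descriptions of 1 library each, and among all 9922 genes with at least 50 UMIs, the minimum used for these lists, 9.04% were at least 1.5-fold lower and 11.03% higher.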

How the data were processed

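Each guide's cells gave 1 library, made with a 10x Chromium 3′ kit (v2) per the labels' protocols. The deposited values are raw UMI counts per gene and barcode. Cell Ranger 1.3.1 and build mm10 were used, per the submitters' processing notes. Of the annotation release and the cell calling rule nothing is said in the sources used here. Coordinates are 1-based from GENCODE M21 on the same build.

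Kept barcodes had 500 or more genes and mitochondrial UMIs of 10% or less, 608 of 651 in the Renilla and 575 of 652 in the Jumonji library (14418743 and 12809661 UMIs). Scrublet marked 10 and 4 kept cells as doublets. They were retained, and leaving them out was an alternative. UMIs were summed per library and scaled to CPM. Ratios carry exact conditional binomial intervals, sums Poisson and shares Clopper-Pearson intervals, all at 95% and for counting error only. A count of 0 was set to 3 for ratios. Cells were clustered with scanpy 1.11.5 and leidenalg 0.10.2 (2000 variable genes, 30 components, 15 neighbours, resolution 0.6, 5582 genes left out). On library totals simulated as Poisson counts, 193 of 200 genes changed 3-fold passed 1.5-fold, as did 18 of the unchanged genes among 8947. Of the intervals 95.1% held the true ratio. The simulation had no variation between cells or between libraries beyond counting, so it checks the calculation and not the intervals on real cells.

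The members and lists were chosen with earlier results of these data known. All 9 cofactors are named, and from each list the 2 highest and 2 lowest genes with at least 50 UMIs and those at least 1.5-fold apart. For likeness, the 2 genes of highest correlation are named for each cofactor with at least 500 UMIs.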

Additional observations from a re-analysis of the deposited data

Results flagged for a closer look

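The barcodes left out for more than 10% mitochondrial UMIs, 43 in the Renilla and 77 in the Jumonji library, enter no result above except the alternative with all deposited barcodes. In them 2 cofactors stood above the kept control cells beyond counting error. For Mllt10 the excluded Renilla barcodes gave 222 CPM (167 to 288), against 127 CPM in kept cells. Those of the Jumonji library gave 235 CPM (191 to 286), against 115 CPM. For Kmt2a the Jumonji ones gave 154 CPM (119 to 196), against 99.6 CPM in kept Renilla and 113 CPM in kept Jumonji cells. In excluded Renilla barcodes it was at 131 CPM (89.9 to 183), an interval that holds the kept value. The nuclear RNA Malat1 was also higher in the excluded barcodes, at 8805 CPM beside 3375 in kept Renilla cells and 10237 CPM beside 3589 in kept Jumonji cells, and its part in these levels was not tested. The other 7 cofactors had at most 12 UMIs each in the excluded barcodes of a library, too few for a comparison.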

How the results depend on the processing

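Each cofactor ratio was recomputed under 10 alternatives: other cell filters, doublets left out, thinned cells, cells weighted equally, 2 other scalings, clusters or phases averaged, and cluster 5 left out. The average over phases was chosen after seeing the data. Kmt2a, Mllt1, Mllt10, Dot1l and Aff1 kept their sign in all 10, with ranges of 0.13 to 0.29, -0.96 to -0.44, -0.19 to -0.06, -0.43 to -0.12 and -0.55 to -0.36. Men1, Psip1, Mllt3 and Aff4 changed sign in at least 1. Values outside the counting interval of the main value were Kmt2a at 0.29 and Aff4 at 0.10 in thinned cells, Psip1 at 0.18 as a mean over clusters, and Men1 at 0.093 and Dot1l at -0.12 as means over phases. As a mean over clusters 0 cofactors were 1.5-fold lower in place of 1. The cause of these moves was not tested. Thinning keeps fewer UMIs and also left out 29 Renilla and 55 Jumonji cells as too shallow, so its values describe a different set of cells. No paired analysis was possible because each condition has 1 library. With 1 library each, culture, library preparation and guide cannot be told apart. At these depths the intervals of Mllt1, Mllt3, Dot1l, Aff1 and Aff4 hold differences of over 1.5-fold.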
